A study of Mus musculus with 24 samples.

Results

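Skeletal muscle genes were followed through the skin of 24 mice. The list held 42 genes of the sarcomere, of calcium handling, of muscle energy supply and of muscle regulation. They were taken by symbol from a table of 18892 genes, and a member was kept for testing where it reached 1 FPKM (a read level corrected for gene length and library size) in at least 4 of the 24 libraries. Of the 42 genes, 37 passed and 5 (Myh7, Myl2, Myl3, Tnnc1 and Myod1) did not, beside 13039 genes that passed in the whole table.

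Poly(A) RNA was sequenced from 1 skin sample per mouse, 4 mice in each of 6 groups. Treatment mice were injected every day with dihydrotestosterone (DHT, an androgen) and had an extract of HLX, the Hanlianxiang herbal formula, put on the skin. Model mice had the same DHT injections with only the solvent on the skin, and control mice had saline injections with the solvent. Skin was taken on day 15 from 4 mice of each treatment and on day 10 from the other 4. All groups therefore shared a daily injection and a topical application. Strain, sex, age, the dose and the body site of the sample are not given in the labels. Each library is a separate mouse, so p-values measure the spread between mice.

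Skeletal muscle contracts through sarcomeres, in which myosin thick filaments pull on actin thin filaments anchored in Z-discs. Calcium released from the sarcoplasmic reticulum lifts the block that troponin and tropomyosin place on actin, and a calcium pump returns it. Fast and slow fibers build these parts from different genes, and fast fibers are further divided by the myosin heavy chain they use: Myh4 in type IIb, Myh1 in type IIx and Myh2 in type IIa fibers. Mouse skin carries the panniculus carnosus, a thin sheet of mostly fast striated muscle under the dermis and fat, so a piece of skin brings along whatever part of that sheet was cut with it.

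Whole reads recovered from the FPKM steps came to between 36064157 and 40402478 per library. Ddx3y, a Y-linked gene, stood at 10.4 and 11.5 FPKM in treatment replicates 1 and 2 of day 15 and at 14.9 FPKM in treatment replicate 3 of day 10. These 3 are the libraries called low in Ddx3y below. Treatment replicate 4 of day 15 came next at 17.5 FPKM and stayed in the fits without them, and every other library was at 21.4 FPKM or more. The kidney gene Kap stood at 14.0 FPKM or more in the 8 model and control libraries of day 10 and was listed at 0 in the other 16 libraries, treatment skin of day 10 included. Kap thus divides treatment from model and control skin at day 10, and day 15 from day 10 within model and within control skin. In those comparisons, whatever goes with Kap cannot be told apart from treatment or day. The part of either difference in the results was not tested. Some results that use the first 3 libraries are given with and without them, and the others are given with them only.

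Together the 37 genes summed to between 1950.0 FPKM (control replicate 2 of day 10) and 7978 FPKM (model replicate 2 of day 15), or 0.445% to 1.90% of all FPKM in a library. At day 15 the summed levels were 6842, 3026, 5781 and 2762 FPKM in treatment skin, 2950.3, 7978, 4223 and 3442 FPKM in model skin, and 2943, 4335, 3209 and 3085 FPKM in control skin. At day 10 they were 3951, 4393, 5195 and 2571 FPKM in treatment skin, 4393, 3705, 6891 and 2248 FPKM in model skin, and 3382, 1950.0, 2594 and 2619 FPKM in control skin. The groups of each day overlapped, and within treatment skin and within model skin single mice differed by more than the group means did. The means were 4603 ± 2023 FPKM in treatment skin, 4648 ± 2281 FPKM in model skin and 3393 ± 637 FPKM in control skin at day 15, and 4028 ± 1099, 4309 ± 1939 and 2636 ± 586 FPKM in treatment, model and control skin at day 10 (SD, n = 4 each).

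**Figure D1:**
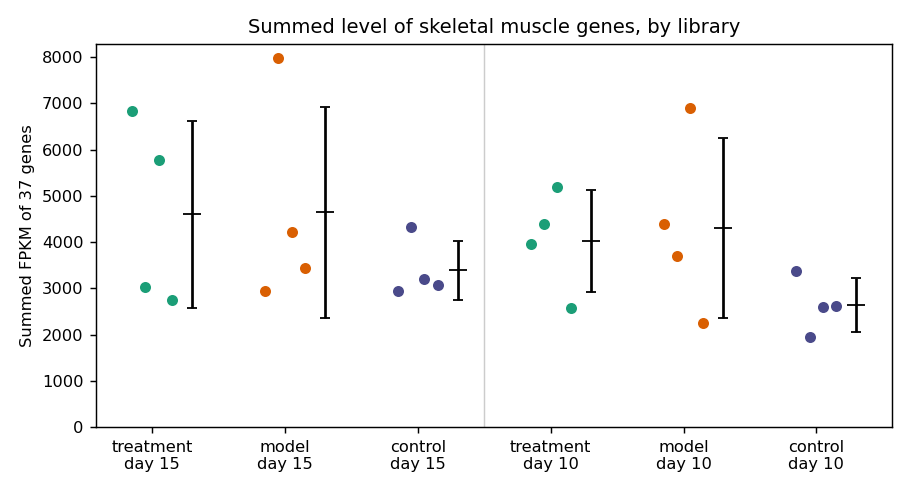
Summed FPKM of the 37 muscle genes in each of 24 skin libraries (vertical axis, linear, from 0), by treatment and day, with the group mean and SD beside the points (n = 4 each). Model replicate 2 of day 15 stands highest at 7978 FPKM, and the treatment, model and control libraries of each day overlap.

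The members moved with other muscle genes. Across the 24 libraries the mean log2(FPKM + 1) of the 37 genes had a Pearson r of 0.98 with that of 43 other skeletal muscle genes, and of 0.985 after group means were removed. These r values are descriptions, since both lists are read from the same libraries. The same mean had r of 0.447 with white adipocyte genes (0.55 within groups), of 0.132 with smooth muscle genes (0.17 within groups) and of -0.054 with library depth (-0.434 within groups), and the part of depth in the results was not tested. Model replicate 2 of day 15, the library with the most muscle RNA, also had the most Adipoq, the adipocyte hormone adiponectin, at 240.5 FPKM, and the most Ucp1, the brown fat uncoupling protein, at 3.13 FPKM. In bulk skin, less muscle in the piece and less RNA per fiber cannot be told apart.

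The muscle was of the fast kind by its contractile genes. Tnnt3, the fast troponin T that ties troponin to tropomyosin, was the highest of them. At day 15 Tnnt3 had 802, 304, 730.2 and 307 FPKM in treatment skin, 339, 1039, 477 and 422 FPKM in model skin, and 347, 548, 389 and 381 FPKM in control skin. At day 10 Tnnt3 had 471, 484, 565 and 278 FPKM in treatment skin, 537, 425, 808 and 257 FPKM in model skin, and 410.1, 220.4, 309 and 333 FPKM in control skin. Tnnt3 was highest in model replicate 2 of day 15 and lowest in control replicate 2 of day 10, with overlap between the groups of each day. Mylpf, the fast regulatory light chain of myosin, was highest and lowest in the same 2 libraries. At day 15 Mylpf had 821, 302, 557 and 252 FPKM in treatment skin, 291, 839, 460.4 and 332 FPKM in model skin, and 280.3, 426, 294 and 273 FPKM in control skin. At day 10 Mylpf had 466, 481, 582 and 268 FPKM in treatment skin, 471, 362, 716 and 225 FPKM in model skin, and 297, 166, 281 and 239.8 FPKM in control skin. Control replicate 2 of day 15 stood above the other 3 libraries of its group, and the groups of each day overlapped. Actn3, the alpha-actinin of fast Z-discs, spread more widely. At day 15 Actn3 had 101, 23.5, 97.0 and 18.8 FPKM in treatment skin, 22.8, 139.8, 45.5 and 48.9 FPKM in model skin, and 44.0, 74.0, 44.0 and 43.3 FPKM in control skin. At day 10 Actn3 had 53.8, 53.4, 77.1 and 16.6 FPKM in treatment skin, 49.8, 26.4, 108 and 24.5 FPKM in model skin, and 53.0, 12.2, 29.5 and 19.6 FPKM in control skin. Actn3 ran from 12.2 to 139.8 FPKM over the 24 libraries, and the groups of a day overlapped. Of the other fast genes, Tnni2 (fast troponin I) had 143, 244 and 535 FPKM as its lowest, median and highest value, Tnnc2 (fast troponin C) 123, 242 and 605 FPKM, Myl1 (fast essential light chain) 48.2, 100.4 and 327 FPKM, and Mybpc2 (fast myosin-binding protein C) 11.1, 29.5 and 72.6 FPKM.

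Slow contractile genes were near or under the detection filter, apart from Mybpc1. Myh7, the slow myosin heavy chain, was listed at 0 in 13 libraries and reached 0.181 FPKM, or 43 reads, at most. Myl2 (slow regulatory light chain) was at 0 in 9 libraries with a highest value of 0.252 FPKM, and Myl3 (slow essential light chain) was at 0 in 2 libraries with a highest value of 0.534 FPKM. Tnnc1, the slow troponin C, lay between 0.0684 and 1.10 FPKM and passed 1 FPKM in 1 library. The fast partner exceeded the slow one in every library for each troponin: the ratio of FPKM ran from 63.9 to 510.2 for Tnnt3 over Tnnt1, from 107.7 to 798.9 for Tnni2 over Tnni1, and from 191.6 to 4686 for Tnnc2 over Tnnc1. Tnnt1, the slow troponin T, had a highest value 4.29 times its lowest. At day 15 Tnnt1 had 1.64, 2.21, 1.65 and 1.52 FPKM in treatment skin, 2.02, 2.04, 2.13 and 2.58 FPKM in model skin, and 1.185, 2.09, 1.58 and 1.31 FPKM in control skin. At day 10 Tnnt1 had 2.57, 2.97, 3.73 and 3.35 FPKM in treatment skin, 2.05, 5.08, 4.66 and 2.73 FPKM in model skin, and 2.98, 3.45, 1.86 and 1.65 FPKM in control skin. Within treatment skin all 4 libraries of day 15 were below all 4 of day 10 for Tnnt1, and its other groups overlapped. Tnni1, the slow troponin I, stayed within 0.669 and 2.02 FPKM. At day 15 Tnni1 had 1.22, 1.21, 1.66 and 1.07 FPKM in treatment skin, 2.02, 0.669, 0.690 and 0.706 FPKM in model skin, and 1.76, 1.27, 1.56 and 1.175 FPKM in control skin. At day 10 Tnni1 had 1.15, 1.12, 0.934 and 0.994 FPKM in treatment skin, 1.14, 1.03, 0.722 and 0.944 FPKM in model skin, and 1.82, 1.09, 1.12 and 1.64 FPKM in control skin. Model replicate 1 of day 15 stood apart from the other 3 libraries of its group. Mybpc1, the slow-type myosin-binding protein C that many fast fibers also make, was far above the other slow genes, and Mybpc2 exceeded it by a median ratio of 1.66 only, with ratios from 0.523 to 2.98. At day 15 Mybpc1 had 23.97, 24.3, 21.3 and 22.4 FPKM in treatment skin, 35.03, 24.4, 26.3 and 17.7 FPKM in model skin, and 13.2, 19.5, 14.7 and 16.3 FPKM in control skin. At day 10 Mybpc1 had 20.3, 22.01, 23.9 and 25.1 FPKM in treatment skin, 25.3, 36.9, 36.6 and 17.2 FPKM in model skin, and 18.9, 21.2, 18.2 and 24.6 FPKM in control skin. At day 15 all 4 treatment libraries and 3 of the 4 model libraries were above every control library for Mybpc1, while the day 10 groups overlapped.

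Thin filament and Z-disc genes included the most abundant member, Acta1, the skeletal muscle alpha-actin. At day 15 Acta1 had 1332, 735, 979 and 645 FPKM in treatment skin, 643, 1442, 929 and 691 FPKM in model skin, and 486, 758, 558 and 513 FPKM in control skin. At day 10 Acta1 had 748, 871, 1097 and 553 FPKM in treatment skin, 786, 781, 1216 and 449 FPKM in model skin, and 562, 379, 452 and 481 FPKM in control skin. Acta1 was lowest in control replicate 2 of day 10, and the groups of each day overlapped. Tpm2, the beta-tropomyosin that smooth muscle also makes, had the narrowest relative range of all 37 genes, its highest value being 2.46 times its lowest. At day 15 Tpm2 had 224, 138, 193 and 129.8 FPKM in treatment skin, 131, 255, 159.7 and 133 FPKM in model skin, and 129.9, 168, 134 and 131 FPKM in control skin. At day 10 Tpm2 had 145, 168, 193 and 116 FPKM in treatment skin, 156, 162, 229.6 and 104 FPKM in model skin, and 153, 110.3, 113 and 133 FPKM in control skin. Control replicate 2 again stood above the rest of its day 15 group, and the groups of each day overlapped. Des, desmin, forms the intermediate filaments that link Z-discs and is shared with smooth muscle. At day 15 Des had 85.2, 67.8, 57.2 and 67.2 FPKM in treatment skin, 63.1, 88.2, 76.1 and 53.0 FPKM in model skin, and 48.5, 54.4, 44.0 and 42.3 FPKM in control skin. At day 10 Des had 49.97, 67.0, 84.3 and 53.1 FPKM in treatment skin, 59.6, 67.3, 84.6 and 43.1 FPKM in model skin, and 48.7, 37.2, 32.7 and 39.5 FPKM in control skin. At both days every treatment library was above every control library for Des, and model libraries overlapped control libraries through replicate 4 alone. Actn2, the alpha-actinin found in all fibers, showed the clearest order between groups. At day 15 Actn2 had 21.9, 18.6, 13.1 and 16.1 FPKM in treatment skin, 23.5, 19.0, 18.2 and 12.9 FPKM in model skin, and 8.85, 10.5, 10.6 and 9.56 FPKM in control skin. At day 10 Actn2 had 14.1, 22.5, 23.8 and 24.3 FPKM in treatment skin, 15.5, 18.8, 23.1 and 10.7 FPKM in model skin, and 10.9, 10.8, 10.4 and 12.4 FPKM in control skin. All treatment libraries were above all control libraries for Actn2 at both days. All model libraries were above all control libraries at day 15, and at day 10 model replicate 4 fell among the control libraries.

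Tcap, telethonin, caps the end of titin at the Z-disc. At day 15 Tcap had 55.1, 32.9, 74.8 and 34.1 FPKM in treatment skin, 33.3, 91.1, 46.3 and 44.6 FPKM in model skin, and 48.3, 58.3, 44.6 and 44.3 FPKM in control skin. At day 10 Tcap had 38.0, 48.9, 46.3 and 24.7 FPKM in treatment skin, 64.0, 58.3, 97.7 and 28.4 FPKM in model skin, and 56.8, 30.1, 34.6 and 46.4 FPKM in control skin. Its groups overlapped at both days. Xirp2, an actin-binding Xin-repeat protein of the Z-disc region, was uneven within treatment skin. At day 15 Xirp2 had 5.39, 2.92, 12.9 and 5.36 FPKM in treatment skin, 9.39, 16.6, 10.7 and 8.73 FPKM in model skin, and 6.09, 8.71, 6.94 and 6.21 FPKM in control skin. At day 10 Xirp2 had 8.18, 11.2, 8.40 and 9.87 FPKM in treatment skin, 8.51, 7.46, 14.5 and 4.81 FPKM in model skin, and 6.27, 4.67, 4.72 and 5.72 FPKM in control skin. At day 15 treatment replicate 3 was above 3 of the 4 model libraries and the other 3 treatment libraries were below all 4 of them, while the model libraries were all above the control libraries. Neb, nebulin, runs along the thin filament. At day 15 Neb had 6.10, 4.72, 8.99 and 4.05 FPKM in treatment skin, 7.24, 11.5, 6.63 and 6.25 FPKM in model skin, and 4.603, 6.71, 5.62 and 5.33 FPKM in control skin. At day 10 Neb had 5.87, 6.81, 7.01 and 5.42 FPKM in treatment skin, 8.00, 6.96, 13.0 and 4.52 FPKM in model skin, and 6.13, 4.36, 4.41 and 4.86 FPKM in control skin. The same 3 treatment libraries of day 15 were below every model library for Neb, and replicate 3 was not. Ttn, titin, spans from Z-disc to thick filament, and per kilobase it was the lowest of the Z-disc and filament genes. At day 15 Ttn had 1.45, 1.28, 1.56 and 0.977 FPKM in treatment skin, 1.45, 2.15, 1.38 and 1.28 FPKM in model skin, and 0.975, 1.16, 1.181 and 1.11 FPKM in control skin. At day 10 Ttn had 1.06, 1.32, 1.66 and 0.986 FPKM in treatment skin, 1.69, 1.61, 2.43 and 0.865 FPKM in model skin, and 1.24, 0.832, 0.825 and 0.964 FPKM in control skin. At day 15 the model libraries were all above the control libraries for Ttn, and the other groups of a day overlapped. Myot (myotilin) ran from 10.1 to 34.4 FPKM, Myoz1 (calsarcin that ties calcineurin to the Z-disc) from 14.9 to 82.5 FPKM, and Ldb3 (a Z-disc PDZ protein) from 5.32 to 19.1 FPKM.

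Among calcium-handling genes, Atp2a1, the calcium pump of fast sarcoplasmic reticulum, was the most abundant. At day 15 Atp2a1 had 324, 159, 354 and 135 FPKM in treatment skin, 128, 391, 181 and 173 FPKM in model skin, and 182, 258, 201 and 182 FPKM in control skin. At day 10 Atp2a1 had 186, 211, 272 and 112 FPKM in treatment skin, 223, 187, 386 and 117 FPKM in model skin, and 233, 122, 140.0 and 151 FPKM in control skin. Its groups overlapped at both days. Pvalb, parvalbumin, buffers calcium in the fastest fibers. At day 15 Pvalb had 308, 49.8, 351 and 55.7 FPKM in treatment skin, 58.2, 443, 126 and 133 FPKM in model skin, and 155, 240.1, 159 and 142 FPKM in control skin. At day 10 Pvalb had 188, 168, 178 and 49.9 FPKM in treatment skin, 193, 86.4, 326 and 64.1 FPKM in model skin, and 169.7, 45.2, 119 and 93.9 FPKM in control skin. Pvalb separated libraries within groups: treatment replicates 2 and 4 and model replicate 1 of day 15 were at 58.2 FPKM or less, while treatment replicates 1 and 3 and model replicate 2 were at 308 FPKM or more. The calcium release channel Ryr1 had 3.18, 4.65 and 9.84 FPKM as its lowest, median and highest value, the voltage sensor Cacna1s 2.92, 4.52 and 9.80 FPKM, and the calcium store protein Casq1 13.1, 32.6 and 89.3 FPKM.

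Energy genes were led by Ckm, the muscle creatine kinase that regenerates ATP. At day 15 Ckm had 543, 215, 474 and 186 FPKM in treatment skin, 170.4, 622, 300.3 and 255 FPKM in model skin, and 228, 341, 254 and 242 FPKM in control skin. At day 10 Ckm had 270.1, 342, 424 and 165 FPKM in treatment skin, 315, 251, 533 and 157 FPKM in model skin, and 274, 139, 189 and 174 FPKM in control skin. Ckm ranked the libraries almost as Tnnc2 did (r = 0.982 within groups), and its groups overlapped. Mb, myoglobin, stores oxygen and is most abundant in oxidative fibers. At day 15 Mb had 73.8, 76.6, 68.0 and 76.7 FPKM in treatment skin, 97.3, 79.4, 89.3 and 50.7 FPKM in model skin, and 44.3, 66.9, 53.4 and 59.2 FPKM in control skin. At day 10 Mb had 49.3, 66.2, 58.4 and 83.0 FPKM in treatment skin, 76.7, 129, 84.1 and 46.8 FPKM in model skin, and 65.4, 69.0, 61.2 and 64.1 FPKM in control skin. At day 15 the treatment libraries were all above the control libraries for Mb, and at day 10 they overlapped. In model replicate 2 of day 10 Mb was at its highest of all 24 libraries while Ckm was at 251 FPKM and Pvalb at 86.4 FPKM, and in model replicate 4 of day 10 all 3 genes were low. Ckmt2 (mitochondrial creatine kinase) ran from 7.78 to 38.0 FPKM, Eno3 (muscle enolase) from 16.8 to 57.9 FPKM, Pygm (muscle glycogen phosphorylase) from 26.4 to 109 FPKM, and Pgam2 (muscle phosphoglycerate mutase) from 20.8 to 99.5 FPKM.

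Regulators were low but measurable. Trim63, the ubiquitin ligase MuRF1 that marks muscle proteins for breakdown, was uneven across mice. At day 15 Trim63 had 4.35, 2.41, 6.04 and 6.0 FPKM in treatment skin, 7.84, 7.29, 6.56 and 5.10 FPKM in model skin, and 6.24, 7.21, 5.96 and 6.16 FPKM in control skin. At day 10 Trim63 had 3.24, 6.97, 6.73 and 4.16 FPKM in treatment skin, 5.56, 5.26, 7.45 and 3.82 FPKM in model skin, and 3.30, 3.43, 2.26 and 5.26 FPKM in control skin. All 4 control libraries of day 15 were above all 4 of day 10 for Trim63, and treatment replicate 2 of day 15 was the lowest of its day. Myf6, the MRF4 transcription factor of differentiated fibers, gave the following values. At day 15 Myf6 had 6.41, 1.69, 6.54 and 1.90 FPKM in treatment skin, 4.56, 7.60, 6.17 and 4.61 FPKM in model skin, and 3.84, 3.82, 5.02 and 4.79 FPKM in control skin. At day 10 Myf6 had 4.86, 9.66, 7.87 and 4.54 FPKM in treatment skin, 5.03, 2.99, 8.63 and 2.33 FPKM in model skin, and 3.63, 2.09, 3.06 and 1.95 FPKM in control skin. All 4 treatment libraries of day 10 were above all 4 control libraries for Myf6, and treatment replicates 2 and 4 of day 15 were the lowest of that day. Myod1, the myoblast factor, lay between 0.0137 and 0.764 FPKM.

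**Figure D2:**
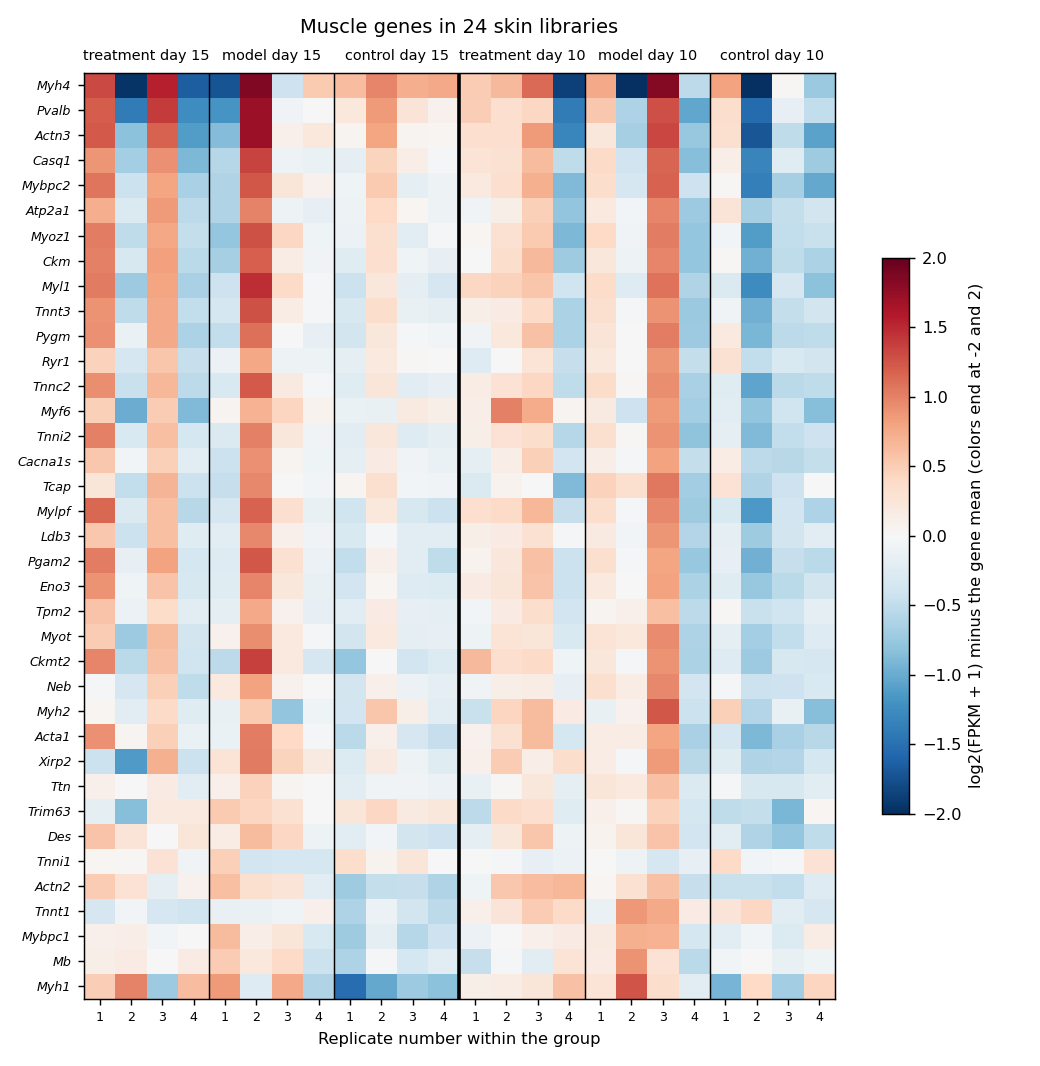
log2(FPKM + 1) of each of 37 muscle genes minus the gene's mean over 24 libraries (color, ends at -2 and 2), with genes in rows ordered by their correlation with Myh4 and libraries in columns by group. Myh4 and the genes next to it are low together in single mice of most groups, while Myh1, Mb, Mybpc1, Tnnt1 and Actn2 at the bottom are not.

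The members varied between mice of the same group far more than most genes. Their median SD within groups was 0.51 on the log2(FPKM + 1) scale, against 0.16 for all 13039 tested genes. All 37 members that passed were above that median and 28 of them above the 90th percentile of 0.35. Myh4 (1.501), Pvalb (1.04) and Actn3 (0.95) had the largest SDs, and Ttn (0.21), Tnni1 (0.22) and Tnnt1 (0.28) the smallest. These 3 low genes are compressed by that scale, and even so 69.7%, 73.5% and 83.6% of tested genes had smaller SDs. Over the 666 pairs of members the median r within groups was 0.803, with 335 pairs above 0.8 and 71 below 0. The first component took 82.9% of the within-group variance of the members and the next 8.87%. The 10 genes outside the list that were most like the members' mean over 24 libraries were Srl (r = 0.967), Eef1a2 (0.96), Tmem38a (0.959), Ank1 (0.958), Hrc (0.956), Mypn (0.946), Fbxo40 (0.946), Scn4a (0.942), Tmem233 (0.942) and Tmod4 (0.941).

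The second pattern was between the fast myosin heavy chains, whose genes lie side by side on mouse chromosome 11. Myh4 varied most of all members. At day 15 Myh4 had 205, 20.3, 244 and 25.3 FPKM in treatment skin, 24.1, 298, 61.5 and 119 FPKM in model skin, and 126, 162, 137 and 139 FPKM in control skin. At day 10 Myh4 had 117, 128, 181 and 21.6 FPKM in treatment skin, 139.7, 10.0, 294 and 56.7 FPKM in model skin, and 145, 16.4, 83.3 and 48.8 FPKM in control skin. Treatment replicates 2 and 4 and model replicate 1 of day 15, treatment replicate 4 of day 10 and model and control replicate 2 of day 10 were at 25.3 FPKM or less, and the groups of each day overlapped. Myh1, described because of these values and outside the rule for named genes, was at 100.3 FPKM or more in those same mice. At day 15 Myh1 had 107, 151, 45.0 and 116 FPKM in treatment skin, 137, 63.2, 128 and 49.4 FPKM in model skin, and 25.7, 36.7, 45.3 and 42.5 FPKM in control skin. At day 10 Myh1 had 82.0, 83.5, 89.1 and 113 FPKM in treatment skin, 91.9, 181, 96.3 and 65.0 FPKM in model skin, and 39.2, 100.3, 46.4 and 102 FPKM in control skin. At day 15 the 4 control libraries were at 45.3 FPKM or less and below all 4 model libraries for Myh1. Myh2 stayed low, with a lowest, median and highest value of 2.71, 5.17 and 14.7 FPKM. Myh1 exceeded Myh4 in 9 of the 24 libraries: 2 treatment, 2 model and 0 control libraries of day 15, and 1 treatment, 2 model and 2 control libraries of day 10. Myh4 made up between 5.09% (model replicate 2 of day 10) and 82.2% (treatment replicate 3 of day 15) of the summed FPKM of Myh1, Myh2 and Myh4. Within groups Myh1 had r of -0.698 with Myh4, 0.687 with Mybpc1, 0.665 with Mb and 0.591 with Actn2. Of the 37 members, 6 (Myh1, Mb, Mybpc1, Tnnt1, Actn2 and Tnni1) had a negative r with Myh4 within groups and 31 a positive one. The 6 negative values ran from -0.698 for Myh1 to -0.0955 for Actn2. The 3 myosin genes are near-identical in parts of their coding sequence, and how reads that match more than 1 of them were counted is not given in the sources used here, so their separate levels are uncertain to that extent.

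**Figure D3:**
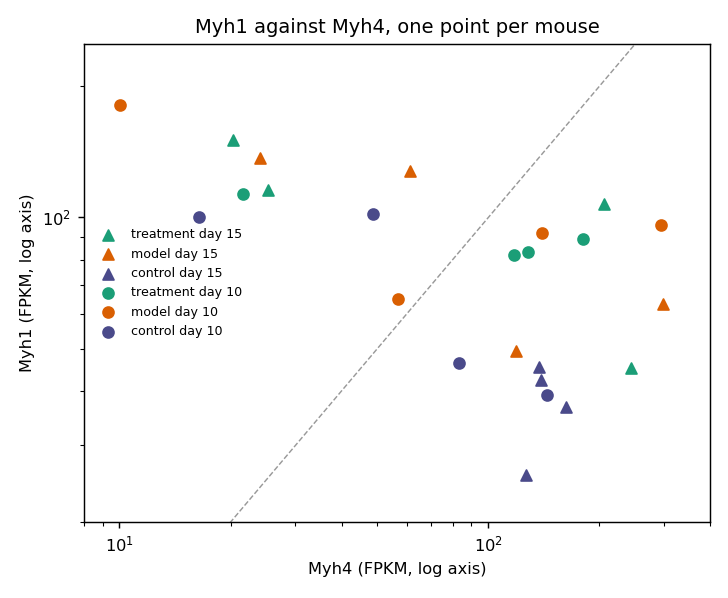
FPKM of Myh1 (vertical, log axis) against Myh4 (horizontal, log axis), 1 point per mouse, color for treatment and shape for day; the dashed line marks equal levels. The 9 mice above the line have more Myh1 than Myh4, and all 4 control mice of day 15 lie below it.

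The promoters of these 3 genes are shown because the genes move apart in the data. Each is the 250 bases before the RefSeq gene start in build GRCm38.p6, plus strand, at chr11:67237562-67237811 for Myh4, chr11:67199852-67200101 for Myh1 and chr11:67170777-67171026 for Myh2. Capitals mark the E-box letters CAGCTG and matches to the MEF2 consensus, both searched on both strands.
Myh4: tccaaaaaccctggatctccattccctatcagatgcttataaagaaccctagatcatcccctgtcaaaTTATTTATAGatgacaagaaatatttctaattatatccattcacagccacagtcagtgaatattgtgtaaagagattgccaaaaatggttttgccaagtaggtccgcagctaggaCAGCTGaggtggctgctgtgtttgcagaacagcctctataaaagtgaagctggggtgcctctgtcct
Myh1: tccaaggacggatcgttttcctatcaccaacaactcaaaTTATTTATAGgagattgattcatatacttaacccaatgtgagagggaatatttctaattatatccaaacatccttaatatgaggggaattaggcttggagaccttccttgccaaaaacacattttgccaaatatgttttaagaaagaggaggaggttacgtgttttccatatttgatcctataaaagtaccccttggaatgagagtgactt
Myh2: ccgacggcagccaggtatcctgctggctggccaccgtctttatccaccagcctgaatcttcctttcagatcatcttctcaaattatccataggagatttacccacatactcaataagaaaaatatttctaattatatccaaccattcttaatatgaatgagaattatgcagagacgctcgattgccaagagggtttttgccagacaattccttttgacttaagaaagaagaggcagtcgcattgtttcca
Myh4 held 1 CAGCTG and 1 MEF2 match, Myh1 held 0 and 1, and Myh2 held neither. The MEF2 letters were the same in Myh4 and Myh1, and the matches did not overlap the E-box. Among 32851 RefSeq promoter entries of that length, 13.0% held CAGCTG and 2.92% a MEF2 match. A match describes letters and not a bound site. Of the 42 members, 33 had a promoter entry.

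Levels of several Hox genes moved with the myosin ratio. Hox genes keep in adult skin the position along the body axis at which the tissue formed, and higher paralog numbers mark more posterior parts of the body. They were examined after their values were seen. Over 24 libraries the log2 ratio of Myh1 to Myh4, which ran from -2.44 to 4.17, had a Pearson r of 0.919 and a Spearman rho of 0.925 with log2(FPKM + 1) of Hoxc10. The permutation p was 1e-05 for each, the smallest that 100000 permutations can give, and 7.7e-05 after adjustment over the 23 Hox genes tested. That adjustment does not cover the choice of Hox genes from these same libraries. The permutation p-values and the counts drawn from them are therefore descriptions. Without the 2 libraries farthest from the median Hoxc10 level r was 0.905, and after removal of group means 0.925. Among the 13002 tested genes outside the list, the 4 with the highest r were Hoxc10, Hoxa10 (0.861), Hoxa9 (0.833) and Hoxb9 (0.767). Hoxc10 lay between 1.66 and 5.59 FPKM in the 9 libraries with more Myh1 and between 0 and 2.64 FPKM in the 15 with more Myh4. Of 23 Hox genes, 7 had a positive r with an adjusted permutation p under 0.05 and 0 a negative one, and these 7 held 5 of the 6 tested genes of groups 9 and 10. The other one, Hoxd9, had an r of 0.364. After removal of group means the 7 genes had r from 0.604 to 0.925. The lowest r within groups were those of Hoxc4 (-0.702), Hoxc8 (-0.592) and Hoxc5 (-0.575). Hoxc13, with the highest paralog number tested and with a mean of 50.7 FPKM the most abundant, had an r of -0.231, and -0.349 within groups. Whether its level in these samples follows body position was not tested.

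**Figure D4:**
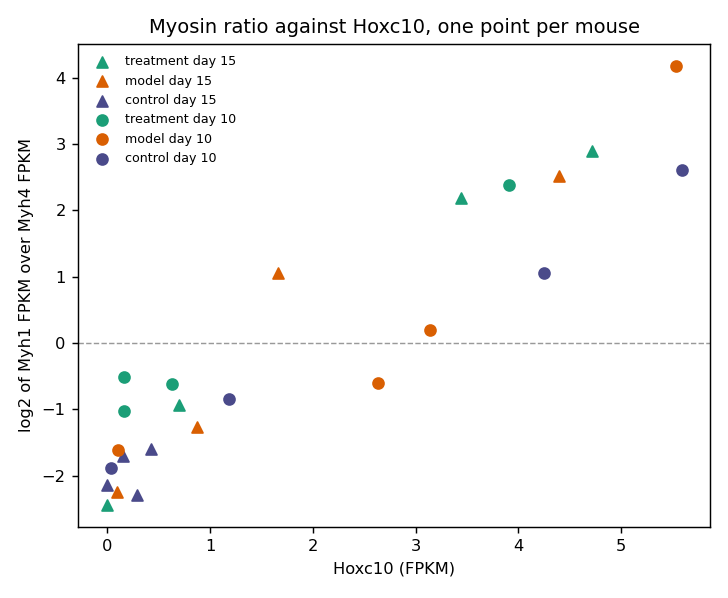
log2 of the ratio of Myh1 to Myh4 FPKM (vertical) against Hoxc10 FPKM (horizontal, linear), 1 point per mouse, color for treatment and shape for day; the dashed line is a ratio of 1. Mice with more Myh1 than Myh4 have Hoxc10 at 1.66 FPKM or more, and the 4 control mice of day 15 are at 0.424 FPKM or less.

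At day 15 Hoxc10 had 0.702, 4.72, 0 and 3.44 FPKM in treatment skin, 4.40, 0.0984, 1.66 and 0.874 FPKM in model skin, and 0.287, 0, 0.424 and 0.152 FPKM in control skin. At day 10 it had 0.167, 0.626, 0.165 and 3.90 FPKM in treatment skin, 2.64, 5.53, 0.110 and 3.14 FPKM in model skin, and 0.0422, 5.59, 1.184 and 4.25 FPKM in control skin. Control skin of day 15 was low in all 4 mice, and every other group held both high and low mice. The members' mean fell with Hoxc10 as well (r = -0.631, and -0.814 within groups). The labels do not give the body site of each piece of skin, and its part in the results below was not tested.

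Model against control skin asks what DHT injections changed. At day 15, Actn2 and Mybpc1 were higher in model skin and no member was lower. Actn2 averaged 18.4 ± 4.35 FPKM in model skin and 9.89 ± 0.844 FPKM in control skin (SD, n = 4 each), a log2 difference of 0.81 (SE 0.20, limma adjusted p = 0.0192) with no overlap. Mybpc1 averaged 25.9 ± 7.14 FPKM in model skin and 15.9 ± 2.72 FPKM in control skin, a log2 difference of 0.64 (SE 0.20, limma adjusted p = 0.0418), and 3 of the 4 model libraries were above every control library. The calls are 2 of 37 members, or 5.41%, against 10.8% of all tested genes called in either direction, and 4.23% called higher. Myh1 averaged 94.4 ± 44.5 FPKM in model skin and 37.6 ± 8.68 FPKM in control skin, with a log2 difference of 1.21 (SE 0.40) and a limma adjusted p of 0.0531, and voom on recovered reads called it (adjusted p = 0.0494). Myh1, Actn2, Ttn and Xirp2 were the 4 members without overlap between model and control skin, 10.8% of members beside 7.89% of all tested genes not overlapping with model skin higher. Differences were above 0 for 32 of 37 members beside 44.2% of all genes, with a median of 0.33 beside -0.03.

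The Actn2 call ended without control replicate 4 (adjusted p = 0.0564) or model replicate 2 (0.052) of day 15. The Mybpc1 call ended when any of the 4 control replicates or model replicate 1, 2 or 3 was left out (adjusted p from 0.0515 to 0.111). Without model replicate 4 there were 4 called members (10.8%), beside 9.29% of all genes in that fit. Without model replicate 1, whose Tnni1 level stands apart, 2 members were called beside 17.2% of all genes, and Tnni1 was lower in model skin (-0.52, adjusted p = 0.00661). Actn2, Mybpc1 and Myh1 are among the 6 genes with a negative r with Myh4. Within groups that r was -0.698 for Myh1 but only -0.266 for Mybpc1 and -0.0955, near 0, for Actn2. Hoxc10 was between 0.0984 and 4.40 FPKM in these model mice and at 0.424 FPKM or less in the control mice, and its part in the 3 differences was not tested.

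At day 10, Des was the called member. Des averaged 63.7 ± 17.2 FPKM in model skin and 39.5 ± 6.75 FPKM in control skin, a log2 difference of 0.65 (SE 0.19, limma adjusted p = 0.0328), and 3 of the 4 model libraries were above every control library. That is 1 of 37 members, or 2.70%, where 13.8% of all tested genes were called in either direction and 6.79% higher. Differences were above 0 for 36 of 37 members, Tnni1 (-0.30) being the other one, beside 46.9% of all genes. The median difference was 0.55 for the members and -0.02 for all genes, with medians of 0.69 for fast contractile, 0.39 for slow contractile, 0.55 for filament and Z-disc, 0.46 for calcium-handling and 0.57 for energy genes. At an unadjusted p under 0.05 there were 9 members (24.3%) beside 30.1% of all genes, and 0 members had groups that did not overlap, beside 12.5% of genes not overlapping with model skin higher. Members move together between mice, so these counts are not separate observations.

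Leaving out control replicate 2, 3 or 4 of day 10 ended the Des call (adjusted p = 0.0546, 0.113 and 0.0709), as did leaving out model replicate 2 or 3 (0.0901 and 0.133). Without model replicate 4, the model library with the least muscle RNA, 6 members (16.2%) were called beside 6.25% of all genes in that fit, and without model replicate 1 there were 2, Des and Tnnt1 (5.41%), beside 18.4%. Des is also a smooth muscle gene, and the smooth muscle list holds the members Des and Tpm2. Of its 12 tested genes Des and Lmod1 were called higher and Smtn lower. The summed level of the list, Des and Tpm2 included, was 399 to 561 FPKM in model skin and 296 to 459 FPKM in control skin, with 0 of its genes at 0 throughout. Tpm2 alone averaged 163 FPKM in model skin and 127 FPKM in control skin, so the sum does not read smooth muscle apart from the members. The part of smooth muscle in the Des result was not tested.

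**Figure D5:**
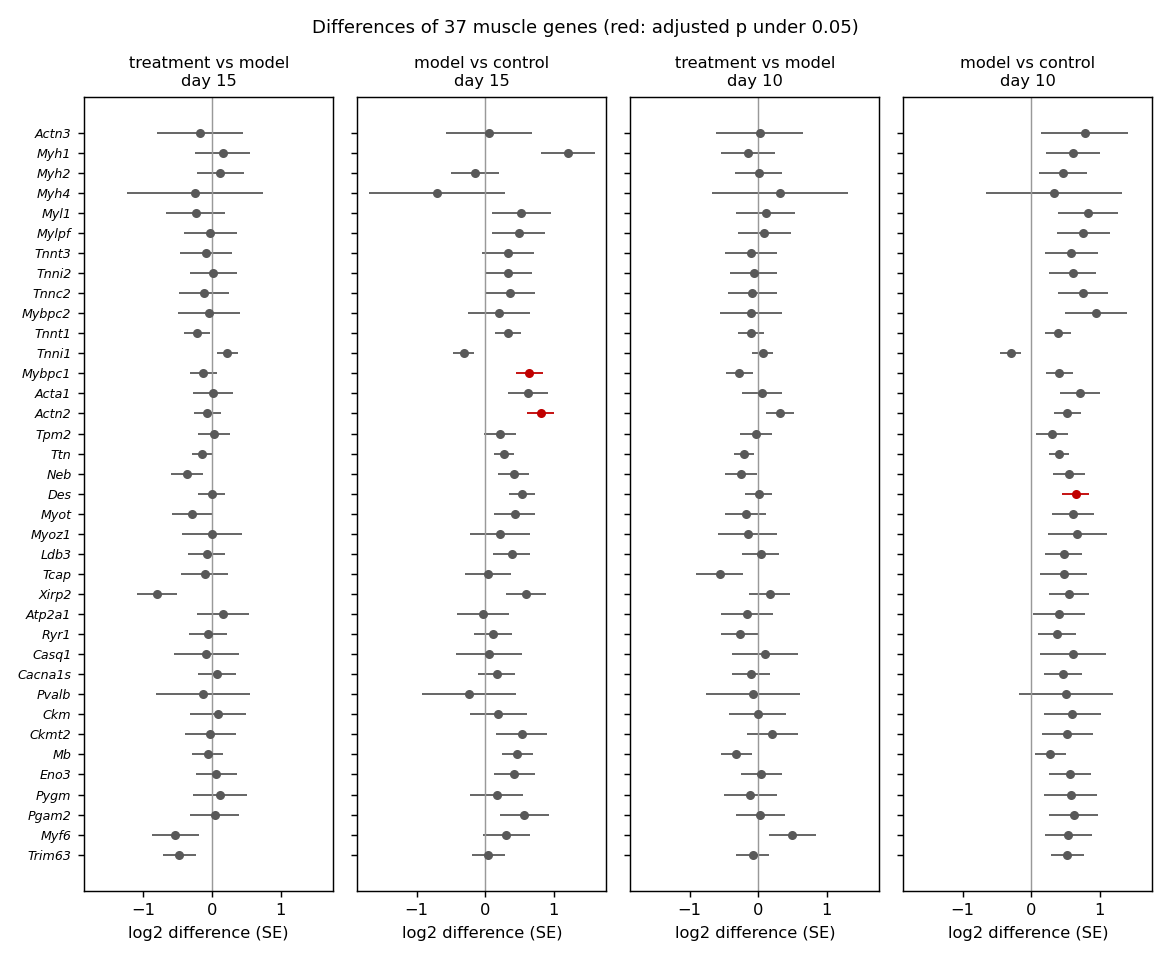
Fitted differences on the log2(FPKM + 1) scale (horizontal, points, with SE bars) for 37 muscle genes in rows, for treatment against model and model against control skin at day 15 and day 10. Red marks an adjusted p under 0.05: Mybpc1 and Actn2 in model against control at day 15 and Des at day 10; the treatment against model panels hold no red point.

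Treatment against model skin asks what topical HLX changed in mice given DHT. At day 15 limma called 0 of 37 members beside 19.7% of all tested genes, and voom on recovered reads also called 0. The 19.7% depends on the fit: with only the groups compared in it, 0 members and 0.0% of all genes were called. In the fit of all 24 libraries, 1 member had an unadjusted p under 0.05 beside 35.1% of genes. That member was Xirp2, which averaged 6.65 ± 4.35 FPKM in treatment skin and 11.3 ± 3.58 FPKM in model skin, a log2 difference of -0.81 (SE 0.29, limma adjusted p = 0.0576). Without treatment replicate 3, the 1 treatment library with a high level, Xirp2 was the 1 member called, lower in treatment skin with a difference of -1.15 (adjusted p = 0.00373), beside 22.1% of all genes. Without model replicate 1, Tnni1 was the 1 member called, higher in treatment skin (0.43, adjusted p = 0.012), beside 22.6% of all genes. Trim63 (-0.48, SE 0.24, limma adjusted p = 0.158) and Neb (-0.37, SE 0.23, limma adjusted p = 0.261) came next by p. The median difference was -0.06 for the members and -0.02 for all genes, and 12 of 37 members were above 0 beside 47.3% of all genes. Treatment replicates 1 and 2 are those with the lowest Ddx3y, and without the 3 libraries low in Ddx3y 0 members were called as well.

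At day 10 limma called 0 of 37 members beside 0.192% of all genes, 0 had an unadjusted p under 0.05 beside 10.4% of genes, and voom called 0. The members with the smallest p were Tcap, Actn2 and Myf6. Tcap averaged 39.5 ± 10.9 FPKM in treatment skin and 62.1 ± 28.4 FPKM in model skin, a log2 difference of -0.56 (SE 0.34, limma adjusted p = 0.58). Actn2 had a difference of 0.32 (SE 0.20, limma adjusted p = 0.605) and Myf6 one of 0.50 (SE 0.34, limma adjusted p = 0.634). The median was -0.07 for the members and -0.03 for all genes, with 16 of 37 members above 0 beside 40.9% of all genes.

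Calls among the 43 other skeletal muscle genes are counted here with the share of all tested genes called in parentheses. At day 10 there was 1 in treatment against model skin (0.192%), 4 in treatment against control skin (3.24%) and 1 in model against control skin (13.8%). At day 15 there was 1 in treatment against model skin (19.7%), and between days within treatment skin there were 3 (9.64%). Xirp1, the Xin protein related to Xirp2, averaged 13.0 ± 6.94 FPKM in treatment skin, 2.41 ± 1.35 FPKM in model skin and 1.30 ± 0.416 FPKM in control skin, and was called higher in treatment than in model skin (log2 difference 1.90, SE 0.39, limma adjusted p = 0.0491). That call ended in 5 of the 8 fits that left out 1 library of these groups (adjusted p up to 0.255) and without the libraries low in Ddx3y (1.75, 0.186). Against control skin of day 10, Xirp1 (2.39), Klhl40 (1.65), Asb5 (1.19) and Klhl41 (0.86) were called higher in treatment skin. Xirp1 and Asb5 stayed called in all 8 such fits and without the libraries low in Ddx3y (adjusted p = 0.015 and 0.0262), while Klhl40 lost its call in 2 fits, Klhl41 in 4, and both without those libraries (0.0651 and 0.0919). Kap separates treatment skin of day 10 from model and control skin of that day. No fit that leaves out libraries can tell that difference apart from treatment. Within treatment skin Xirp1 (-1.55), Klhl40 (-1.11) and Asb5 (-0.76) were called lower at day 15 than at day 10, and none of the 3 calls held without the libraries low in Ddx3y (adjusted p = 0.311, 0.299 and 0.284). In treatment against model skin of day 15 Trdn, the triadin that anchors the calcium store protein, was called lower (-1.27, SE 0.41, limma adjusted p = 0.0333; 0.29 without the libraries low in Ddx3y). In model against control skin of day 10 Klhl41 was called higher (0.63, SE 0.20, limma adjusted p = 0.0436), a call that ended in 7 of the 8 fits.

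Treatment and model skin were each compared with the same control mice, so the 2 sets of differences share those libraries. In treatment against control skin, limma called 0 members at day 15 beside 0.314% of all genes, with 5 members at an unadjusted p under 0.05 beside 19.7% of genes and 0 called by voom. Mybpc1, Actn2, Des and Mb were the 4 members of day 15 without overlap, 10.8% of members beside 3.10% of all genes not overlapping with treatment skin higher. Without treatment replicate 3, Actn2, Des and Myh1 were called (8.11% of members), beside 20.4% of all genes. At day 10 Actn2 was called, 1 of 37 members beside 3.24% of all genes, at 21.2 ± 4.75 FPKM in treatment skin and 11.1 ± 0.892 FPKM in control skin, a log2 difference of 0.85 (SE 0.20, limma adjusted p = 0.0273). The call ended when control replicate 1, 3 or 4 or treatment replicate 2, 3 or 4 was left out (adjusted p from 0.0553 to 0.106), and without the libraries low in Ddx3y (0.0895). Actn2, Des, Ldb3, Xirp2, Ckmt2 and Myf6 were the 6 members of day 10 without overlap, 16.2% of members beside 11.4% of all genes. The model against control differences for Actn2 were 0.81 at day 15 and 0.53 at day 10, and the treatment against control differences 0.74 at day 15 and 0.85 at day 10.

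Between days, limma called 0 members within treatment skin (9.64% of all genes), 0 within model skin (8.47%) and 0 within control skin (4.81%), and voom called 0 in each. At an unadjusted p under 0.05 there were 1, 1 and 2 members in treatment, model and control skin, beside 26.3%, 27.1% and 23.9% of all genes. Tnnt1 had the difference with the smallest p within treatment skin, -0.59 (SE 0.19, limma adjusted p = 0.052), with no overlap between day 15 and day 10. In control skin Trim63 was 0.73 higher at day 15 (SE 0.24, limma adjusted p = 0.0723), also with no overlap. Without treatment replicate 3 of day 15, Xirp2 was called lower at day 15 in treatment skin (-0.93, adjusted p = 0.0158; 19.4% of all genes called), and without model replicate 1 of day 10, Tnnt1 was called lower at day 15 in model skin (-0.66, adjusted p = 0.033; 6.99% of all genes called). The tests of whether a difference itself changed from day to day called 0 members for model against control (0.0% of all genes, voom 0, and 0 members at an unadjusted p under 0.05 beside 2.7% of genes) and 0 for treatment against model (0.0997% of all genes, voom 0, and 2 members at an unadjusted p under 0.05 beside 14.4% of genes).

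A further fit carried the mean level of the 43 other muscle genes as a covariate, which sets that mean equal between groups. Some of the 43, Xirp1, Klhl40, Klhl41, Asb5 and Trdn, were themselves called in comparisons above. In model against control skin of day 15 it called Myh1 (1.32) and Actn2 (0.73) higher and Atp2a1 (-0.40) lower, 8.11% of members beside 12.8% of all genes. At day 10 it called Atp2a1 (-0.39, against 0.41 without the covariate) lower and no longer Des (0.35, adjusted p = 0.147), 2.70% of members beside 11.9% of genes. In treatment against model skin of day 15 Atp2a1 (0.42), Ckm (0.36) and Pygm (0.38) were called higher and Xirp2 (-0.64) lower, 10.8% of members beside 19.5% of genes, and at day 10 the count was 0, beside 0.238% of genes. Against control skin, treatment skin had Acta1 (0.55) higher at day 15 (0.261% of genes called) and Atp2a1 (-0.45, against 0.25 without the covariate), Ryr1 (-0.40, against 0.11) and Tcap (-0.71) lower at day 10 (4.72% of genes called). Within treatment skin 8 members were called between days, 21.6% beside 10.1% of genes: Atp2a1, Pgam2, Pygm, Ryr1, Tcap, Tnni2 and Tpm2 higher at day 15 and Myf6 (-0.56) lower.

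Other cell types of the samples were read from marker lists. Heart muscle genes summed to 3.17 to 10.3 FPKM over all libraries, and 3 of the 10 passed the filter. Myh6 of that list, the atrial heart myosin, was at 0.017 FPKM or less in every library and so was not among these 3. Its level does not stand for the rest of the list. Satellite cell and myoblast genes summed to 1.78 to 4.22 FPKM over all libraries. Dermal fibroblast genes summed to 2960 to 9428 FPKM in treatment skin, 7582 to 14432 FPKM in model skin and 5074 to 6093 FPKM in control skin at day 15, and to 8114 to 9739, 7347 to 11132 and 4292 to 6568 FPKM in treatment, model and control skin at day 10. White adipocyte genes summed to 1424 to 2714, 1341 to 4183 and 2238 to 2857 FPKM in treatment, model and control skin at day 15, and epidermal keratinocyte genes to 1130 to 1786, 875 to 1525 and 1714 to 1864 FPKM. Among these lists, Prg4 of tendon and fascia (2.79), Pmp22 of nerve (0.48), Dcn (0.83) and Col3a1 (1.02) of fibroblasts were called higher and Trp63 of keratinocytes (-0.42) lower in model against control skin of day 10. At day 15 Col3a1 (1.11) and Dcn (0.67) were called higher and Krt5 (-0.69), Krt14 (-0.68), Ivl (-0.76) and Trp63 (-0.40) lower in model against control skin. In treatment against model skin of day 15 Dcn (-0.72) and Lum (-0.64) of fibroblasts were called lower. The fibroblast sums of model and control skin did not overlap at either day, and their part in the muscle results was not tested.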

How the data were processed

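Poly(A) RNA from 24 skin samples was read from 1 deposited table of FPKM, and groups came from the sample titles. Reads were trimmed with fastp, aligned with HISAT2 to GRCm39 and counted with HTSeq, per the submitters' processing notes; versions, parameters and annotation are not given in the sources used here. The authors scaled these values to FPKM before they deposited them. Whole reads were recovered for 18713 of 18715 genes above 0 (tolerance 0.01 read for low and 0.05 for high genes), which gave 36064157 to 40402478 reads per library.

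Genes with at least 1 FPKM in at least 4 libraries were tested as log2(FPKM + 1), a scale that understates changes of low genes. limma 3.58.1 under R 4.3.3 fitted 1 mean per group to all 24 libraries (eBayes with trend and robust) with 11 comparisons, two-sided p-values and Benjamini-Hochberg adjustment over 13039 genes. A gene is called at an adjusted p under 0.05. The script was tested on simulated data. The alternatives were other pseudocounts (0.1 and 5), filters, scalings, weights and libraries in the fit, a replicate block, voom on recovered reads, a muscle covariate and leaving out each library. Correlations used 100000 permutations.

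The members and all lists were chosen with earlier results of these data known. Values in every library are given for the 2 most abundant members of each role, those called or with the smallest p in the 4 main comparisons, and those with the 3 largest and 3 smallest spreads. The 5 members under the filter are given by range. Promoters came from RefSeq tables of GRCm38.p6, and no other coordinates are given because the builds differ. No column of the table was left out.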

Additional observations from a re-analysis of the deposited data

Results flagged for a closer look

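In 138 sets of 4 libraries, a library was marked where its gap to the nearest of the others, as a share of the range of its group, passed the critical value of Dixon's test, and chance marks about 1 in 20 such sets. There were 6. In control skin of day 15, replicate 2 stood above the other 3 libraries for Mylpf at 425.8 FPKM, for Tpm2 at 167.8 FPKM and for Actn3 at 74.03 FPKM. It also had the highest summed muscle level of its group, 4335 FPKM. In treatment skin of day 10, replicate 4 was lowest for Pvalb at 49.88 FPKM and highest for the log2 ratio of Myh1 to Myh4 at 2.388, and it was the mouse of that group with the most Hoxc10, 3.90 FPKM. In model skin of day 15, replicate 1 stood above the others for Tnni1 at 2.017 FPKM.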

How the results depend on the processing

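The called differences of Des, Actn2 and Mybpc1 kept their sign under every alternative run. The muscle covariate turned the sign of 3 differences that it called, Atp2a1 in model against control skin of day 10 (-0.39, against 0.41) and Atp2a1 (-0.45, against 0.25) and Ryr1 (-0.40, against 0.11) in treatment against control skin of day 10, and it turned 24 of 37 signs in the first of these comparisons and 17 in the other. Array weights turned 12 of 37 signs in model against control skin of day 15 and 1 at day 10, with 0 of those called. Counts of called members moved as follows, with the share of all tested genes called in the same fit in parentheses. With only the groups compared in the fit, treatment against model at day 15 kept 0 called members, while the share of all genes called was 0.0% against 19.7% in the main fit. Counts that moved in that setting were 1 (5.55%) for model against control at day 15 and 0 (19.0%) at day 10, 8 (17.1%) for treatment against control at day 10, and 1 (3.37%) between days in treatment skin and 2 (14.9%) in control skin. With array weights they were 3 for model against control at both day 15 (35.2%) and day 10 (37.8%), with Tnni1 lower in model skin at each (-0.37 and -0.38), 2 (14.0%) and 7 (34.4%) for treatment against control at day 15 and day 10, and 2 (2609 of 13039 genes), 1 (25.7%) and 1 (28.2%) between days in treatment, model and control skin. Model against control at day 15 also had 3 with a mean FPKM of at least 5 (13.5%), a common total (9.33%), the muscle covariate (12.8%) and voom (11.1%), and 1 without a filter (5.62%). Between days in treatment skin, no filter (6.32%, Myod1 at -0.49), a pseudocount of 0.1 (9.83%) and a common total (14.8%) each gave 1. Median-of-ratios scaling gave 1 (21.4%) and a common total 1 (17.9%) for treatment against model at day 15, and the muscle covariate gave 4 (19.5%) there, 1 (0.261%) and 3 (4.72%) for treatment against control at day 15 and day 10, and 8 (10.1%) between days in treatment skin. Between days, the median of all genes was -0.1185 in treatment and -0.102 in model skin with the common total, against -0.058 and -0.083 without it. Without the 3 libraries low in Ddx3y, an alternative added after the data were seen, counts were 0 for treatment against control at day 10 and 1 (5.75%) between days in control skin.

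Leaving out 1 library at a time, counts ran from 0 to 4 (day 15) and 0 to 6 (day 10) for model against control, 0 to 1 (day 15) and 0 to 0 (day 10) for treatment against model, 0 to 3 and 0 to 1 for treatment against control at day 15 and day 10, and 0 to 1, 0 to 1 and 0 to 0 between days in treatment, model and control skin. In these fits the share of all genes called ran from 2.78% to 17.2% (day 15) and 4.11% to 18.4% (day 10) for model against control, 9.36% to 22.6% and 0.107% to 0.629% for treatment against model, 0.0% to 20.4% and 0.637% to 3.81% for treatment against control, and 3.26% to 19.4%, 1.12% to 11.7% and 0.759% to 6.35% between days in treatment, model and control skin. Summed levels ran from 3856 to 5217, 3539 to 5214 and 3079 to 3543 FPKM in treatment, model and control skin at day 15, and from 3638 to 4513, 3449 to 4996 and 2388 to 2865 FPKM at day 10. The log2 differences ran from 0.50 to 0.82 for Des, 0.69 to 0.96 for Actn2 and 0.49 to 0.80 for Mybpc1.

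Deviations from the group means had a median r of 0.0306 between samples with the same replicate number (24 pairs, from -0.631 to 0.509). Between samples with other numbers the median was -0.0339 (72 pairs, from -0.533 to 0.568). With ranges this wide, the values cannot show whether equal numbers share more than a name. A replicate block gave 1 called member for model against control at day 15, with Mybpc1 at an adjusted p of 0.0707; it could not be fitted between days. The Mybpc1 call also ended with no filter (0.0602), with only the groups compared (0.0841), with array weights (a difference of 0.26, 0.297) and with the muscle covariate (0.0537), and the Des call with only the groups compared (0.0514). Xirp2 in treatment against model skin at day 15 was called with median-of-ratios scaling (0.0482), a common total (0.0498) and the muscle covariate (0.0174). Apart from the muscle covariate, whose construction takes out the level shared with the other muscle genes, the causes were not tested. The 5 members under the filter had highest values of 18 to 56 reads.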
